A study of Saccharomyces cerevisiae with 12 samples.

Results

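Nitrogen catabolite repression is the system by which yeast keeps the genes for poor nitrogen sources quiet while a preferred source such as glutamine or ammonium is at hand. Its DNA-binding proteins are GATA factors: Gln3 and Gat1 activate the target genes, and Dal80 and Gzf3 repress them by binding the same kind of site. The targets include permeases and enzymes that bring in and break down poorer nitrogen sources, and their levels are commonly read as a measure of how well a culture is supplied with nitrogen. The 10 genes described here were chosen by name. They are the permease genes GAP1 and PUT4, the proline oxidase gene PUT1, the ammonium transporter genes MEP1, MEP2 and MEP3, the activator genes GLN3 and GAT1, and the repressor genes DAL80 and GZF3. Each was read by 1 probe set that names a single gene, out of 5449 Saccharomyces cerevisiae genes with such a probe set on the array.

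Total RNA of whole cultures was hybridised to 12 Affymetrix arrays of the one-colour kind. The parental strain (n = 2) and the evolved strain (n = 2) are labelled as biological replicates, and the 8 homozygotes obtained from the evolved strain are separate strains with 1 array each. All cultures were started at an OD660 of 0.1 in 4% YPX, a medium that the series title ties to the use of xylose, and were collected after 25 h at 35 °C and 200 rpm. The labels give no genotype beyond these strain names, and they name neither the nitrogen source of the medium nor how much of it was left at 25 h. Since each array averages a culture, a change in every cell and a change in the share of cells that express a gene cannot be told apart.

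Only genes with a signal over background on 2 or more arrays were tested, which left 9 of the 10 and 5352 genes in all. The fission yeast probe sets on the same array set the background, through the 90th percentile of their signals, at 18.7 to 19.6 intensity units. Precision is limited by how few arrays there are. The parental arrays differed from each other by a median absolute log2 difference of 0.22 over all tested genes, and the evolved arrays by 0.06, less than any other pair, so whether the latter are separate cultures is uncertain. The mean of 17 rRNA control probe sets was 11.99 and 12.01 on the log2 scale in the parental arrays, 11.89 and 11.81 in homozygotes 5 and 6, and 11.56 to 11.64 in all other arrays. The parental arrays thus had the highest rRNA signal, and the part of this in the comparisons with them was not tested. Of 14 markers of mating type and haploid cells, 12 were tested. STE3 and STE18 rose and STE2 fell in homozygotes against parental arrays, 3 of 12 where 31.2% of all tested genes were called, and none was called in evolved arrays. Without parental array 1, STE3 was at 0.32 (adjusted p = 0.246), STE2 at -0.22 (adjusted p = 0.331) and STE18 at 0.43 (adjusted p = 0.0528), and STE18 also missed the threshold without parental array 2. After quantile normalization STE2 missed the threshold (adjusted p = 0.0676). The alpha-factor gene MF(ALPHA)1 was below background on every array.

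None of the nitrogen catabolite repression genes passed the test in any of the 3 comparisons between strains (limma, adjusted p under 0.05). In homozygotes against parental arrays 0 of 9 were called, where 31.2% of all tested genes were called, 13.2% higher and 18.0% lower. At an unadjusted p under 0.05 it was 1 of 9, GLN3, against 42.7%. In evolved against parental arrays 0 of 9 were called, against 8.41% of all tested genes, 3.2% higher and 5.21% lower. Homozygotes against evolved arrays gave 0 of 9, against 0.0% of all tested genes. At an unadjusted p under 0.05 that comparison also had 0 of 9, against 17.4%. From one homozygote to the next, MEP1, MEP3, PUT4, GAP1 and PUT1 had a wider spread than 97.0% to 99.1% of all tested genes. For GAP1 this became 85.5% without homozygote 6, and for PUT1 90.7% without homozygote 8. Genes of like signal were not compared separately.

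**Figure D1:**
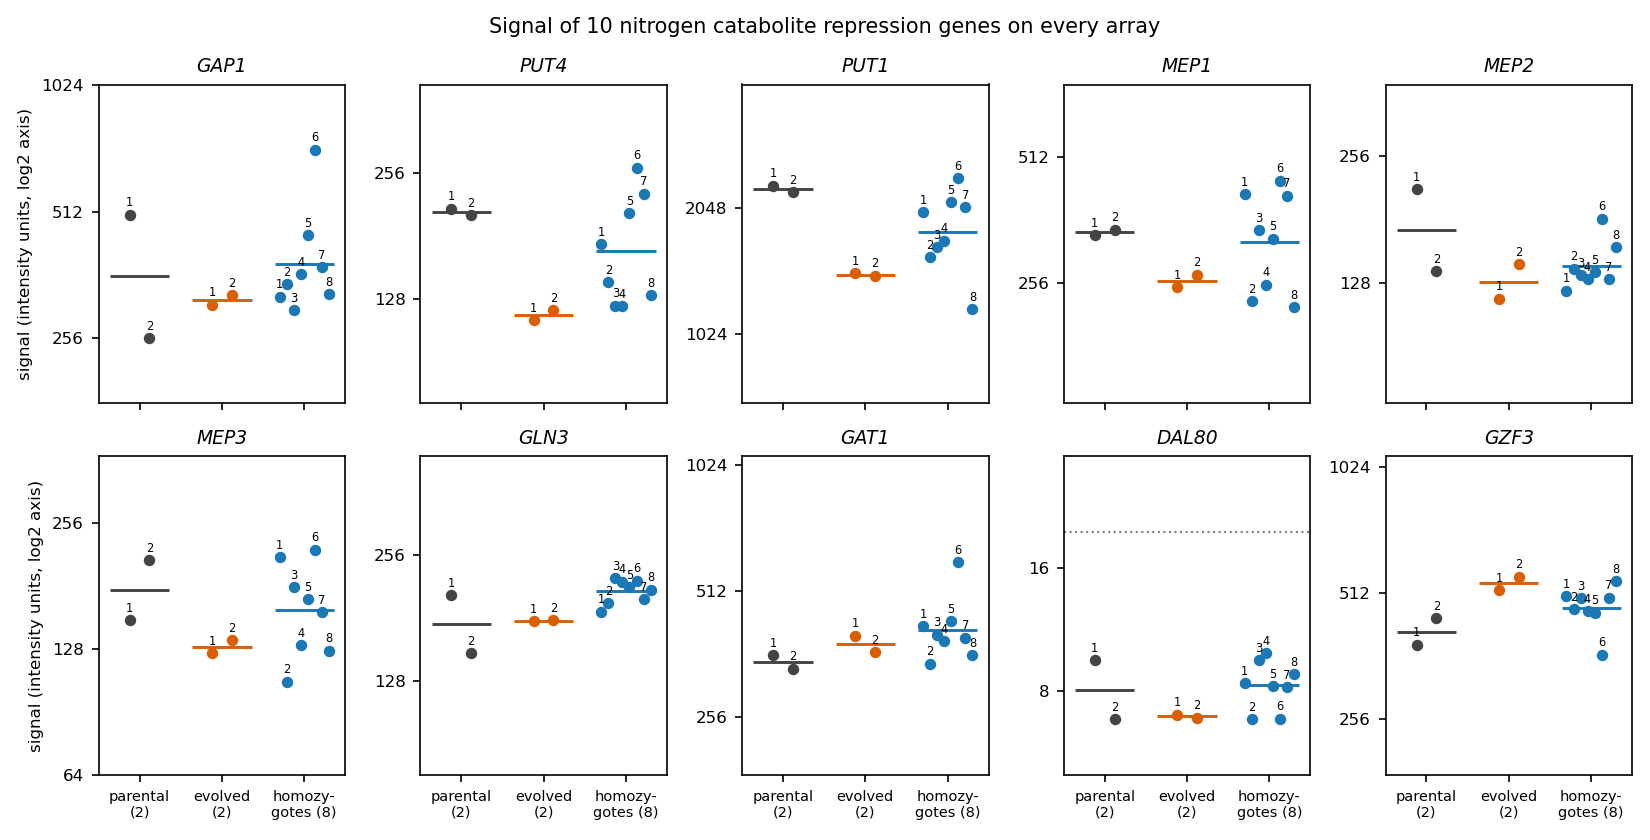
Signal of each of the 10 genes (intensity units, log2 axis, a separate range in each panel) on the parental, evolved and homozygote arrays. Points are single arrays with their replicate or strain number, short lines are geometric means and the dotted line is background. The homozygote points of MEP1 and MEP3 reach above and below all parental and evolved points, and all DAL80 points lie below background.

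GAP1 encodes the general amino acid permease, which takes up most amino acids and is a standard readout of nitrogen catabolite repression. Its signal was 504 and 255 in the parental arrays, 307 and 324 in the evolved arrays, and 298 to 719.8 in the homozygotes (median 354). The parental arrays lay on either side of the evolved arrays, and the groups overlapped. Homozygotes differed from parental arrays by a log2 change of 0.10 ± 0.28 (SE, adjusted p = 0.817, 95% interval -0.51 to 0.71). The sign of this difference depended on single arrays, since leaving out parental array 2 gave -0.39, leaving out parental array 1 gave 0.59 and leaving out homozygote 6 gave -0.03. Evolved arrays differed from parental arrays by -0.19 ± 0.36 (adjusted p = 0.794), and by 0.30 without parental array 1. The log2 difference between the parental duplicates was 0.98, larger than in 97.9% of all tested genes, so the level of GAP1 in the parental strain is poorly fixed by these arrays.

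PUT4 encodes the high-affinity proline permease and PUT1 the mitochondrial proline oxidase, the first enzyme that breaks proline down. The PUT4 signal was 209.8 and 203 in the parental arrays, 114 and 120.3 in the evolved arrays, and 123 to 263 in the homozygotes (median 156). The evolved arrays lay below both parental arrays and below all 8 homozygotes, while the homozygotes spread from near the evolved level to above the parental one. PUT1 was at 2317 and 2236 in the parental arrays, 1431 and 1412 in the evolved arrays, and 1174 to 2409.8 in the homozygotes (median 1856). Both evolved arrays were below both parental arrays, and homozygote 8 alone lay below the evolved level. The levels of PUT4 and PUT1 in evolved arrays were 0.57-fold and 0.62-fold those in parental arrays. These are log2 changes of -0.82 ± 0.32 for PUT4 (SE, adjusted p = 0.133) and -0.68 ± 0.24 for PUT1 (adjusted p = 0.0991), larger in size than in 96.3% and 94.7% of all tested genes but not past the threshold. PUT1 passed it without homozygote 8, which leaves the change as it is and narrows the shared spread (adjusted p = 0.0244). In homozygotes against parental arrays the changes were -0.31 ± 0.25 for PUT4 (adjusted p = 0.374) and -0.34 ± 0.19 for PUT1 (adjusted p = 0.187).

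MEP1, MEP2 and MEP3 encode the ammonium transporters, of which Mep2 also acts as a sensor in filamentous growth. MEP1 was at 334 and 344 in the parental arrays, 251 and 268 in the evolved arrays, and 225 to 449.7 in the homozygotes (median 335). The tight parental and evolved pairs did not overlap, and the homozygotes covered both and reached beyond them on either side. MEP3 was at 149.5 and 208 in the parental arrays, 125 and 134 in the evolved arrays, and 107 to 221 in the homozygotes (median 162). Its parental and evolved arrays did not overlap either, and the homozygotes again reached beyond both. MEP2 was at 214 and 136 in the parental arrays, 117 and 141 in the evolved arrays, and 122 to 182 in the homozygotes (median 135). Here parental array 1 stood above all other arrays, and parental array 2 lay among the homozygotes.

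The transporter genes did not pass the test. In evolved against parental arrays the log2 changes were -0.38 ± 0.30 for MEP1, -0.41 ± 0.21 for MEP2 and -0.45 ± 0.29 for MEP3 (SE, adjusted p = 0.473, 0.249 and 0.385). In homozygotes against parental arrays they were -0.07 ± 0.24, -0.29 ± 0.16 and -0.16 ± 0.23 (adjusted p = 0.84, 0.19 and 0.631). The value for MEP2 hung on parental array 1: without it the homozygotes differed by 0.036 (adjusted p = 0.91), and without parental array 2 by -0.61, past the threshold (adjusted p = 0.0203). The evolved arrays likewise differed in MEP2 by -0.73 once parental array 2 was left out (adjusted p = 0.0287) and by -0.08 once array 1 was. For MEP3 the difference between homozygotes and parental arrays went from -0.40 when parental array 1 was left out to 0.08 when array 2 was.

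Among the GATA factor genes, GLN3 encodes the activator that is kept in the cytoplasm by Ure2 when nitrogen is plentiful, and GAT1 the second activator, itself a target of the system. GLN3 was at 206 and 149.6 in the parental arrays, 178 and 179 in the evolved arrays, and 188 to 225 in the homozygotes (median 213). All 8 homozygotes lay above both evolved arrays, and only parental array 1 fell within their range. GAT1 was at 360.3 and 334 in the parental arrays, 401 and 367 in the evolved arrays, and 344 to 599 in the homozygotes (median 399.6). The evolved arrays lay above the parental ones, and homozygotes 2 and 8 were the homozygotes below parental array 1.

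GLN3 differed between homozygotes and parental arrays by a log2 change of 0.26 ± 0.11 (SE, unadjusted p = 0.0334, adjusted p = 0.0865), the smallest adjusted p of the 9 genes in that comparison. Leaving out parental array 1 brought it to 0.49 and past the threshold (adjusted p = 0.00792), and leaving out array 2 to 0.03 (adjusted p = 0.879). GLN3 also passed after quantile normalization, at 0.38 (adjusted p = 0.0224). GAT1 differed by 0.25 ± 0.15 (adjusted p = 0.23). Evolved and parental arrays differed in GLN3 by 0.02 ± 0.14 (adjusted p = 0.938), or by -0.21 once parental array 2 was left out, and in GAT1 by 0.14 ± 0.19 (adjusted p = 0.698).

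Of the repressor genes, GZF3 was above background on all arrays and DAL80 on none. GZF3 was at 386 and 445 in the parental arrays, 519.9 and 560.3 in the evolved arrays, and 365 to 546 in the homozygotes (median 482). Both evolved arrays were above both parental arrays, and homozygote 6 was the one homozygote below the parental range. The log2 change was 0.38 ± 0.15 in evolved against parental arrays (SE, adjusted p = 0.138; 0.0465 without homozygote 6) and 0.19 ± 0.12 in homozygotes against parental arrays (adjusted p = 0.245). DAL80, which encodes the repressor whose own transcription depends on the GATA activators, had signals of 6.85 to 9.90 on the 12 arrays, below background on each. Its level has therefore only an upper bound here, in every strain, and no fold is given.

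**Figure D2:**
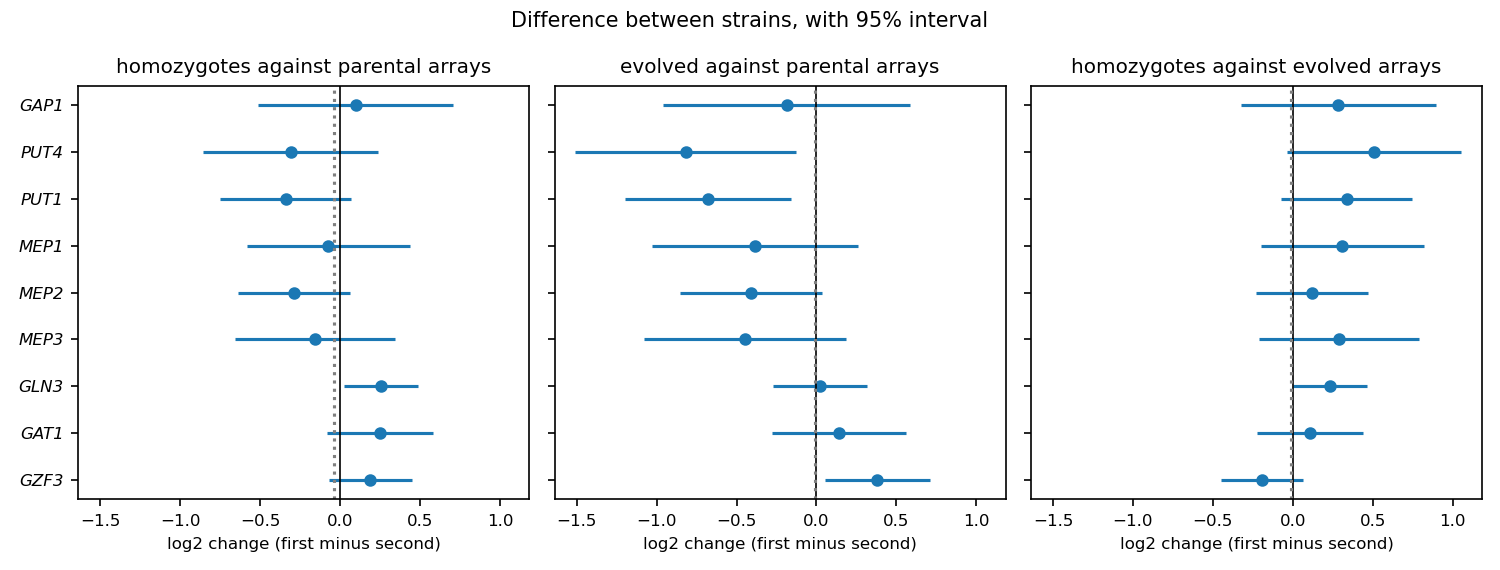
Log2 change of the 9 tested genes (points) with its 95% interval (lines) in homozygotes against parental, evolved against parental and homozygotes against evolved arrays; the dotted line is the median of all tested genes. The intervals of PUT4, PUT1 and GZF3 in evolved against parental arrays and of GLN3 in homozygotes against parental arrays lie to 1 side of 0, before adjustment over all genes.

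No neighbouring pair of groups in the order of their means differed past the threshold for any of the genes. The evolved strain had the lowest mean for all 6 of the permease, transporter and PUT1 genes, as it had for 25.1% of all tested genes. The parental strain had the highest mean for 5 of these 6 genes, GAP1 being the exception, as it had for 42.9% of all tested genes. For the 3 tested GATA factor genes, activators and repressor alike, the parental strain had the lowest mean, as it had for 35.7% of all tested genes, and the highest mean was that of the homozygotes for GLN3 and GAT1 and of the evolved strain for GZF3. The median log2 change of the 9 genes was -0.38 in evolved against parental arrays, where the median of all genes was -0.01. It was -0.07 in homozygotes against parental arrays, where that of all genes was -0.04. The 2 comparisons share the parental arrays, so these values are not independent of each other.

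Between evolved and parental arrays 3 of 9 genes, PUT4, PUT1 and GZF3, had an unadjusted p under 0.05, which 23.9% of all tested genes had. The groups did not overlap in 6 of 9 genes, as in 51.8% of all tested genes. Of these, PUT4, PUT1, MEP1 and MEP3 were lower in evolved arrays, 4 of 9 against 28.0%, and GAT1 and GZF3 were higher, 2 of 9 against 23.8%. In homozygotes against parental arrays the groups overlapped for all 9 genes, while they did not overlap for 31.2% of all tested genes. In homozygotes against evolved arrays 8 of the 9 differences were above 0 and GZF3 was below it. The largest were 0.51 ± 0.25 for PUT4 (SE, adjusted p = 0.312), 0.34 ± 0.19 for PUT1 (adjusted p = 0.37) and 0.31 ± 0.24 for MEP1 (adjusted p = 0.511). The groups did not overlap for PUT4 and GLN3, both higher in homozygotes, that is for 2 of 9 genes against 22.0% of all tested genes (9.25% higher and 12.8% lower). With weights estimated for each group of arrays, PUT4, PUT1 and GLN3 were called higher in homozygotes than in evolved arrays (adjusted p = 0.0297, 0.0473 and 0.0112). That fit gave the evolved duplicates a weight of 3.69 and called 1549 genes in all.

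The homozygotes differed among themselves in most of these genes. The SD of the log2 signal over the 8 strains was 0.43 for PUT4, 0.41 for GAP1, 0.40 for MEP1, 0.37 for MEP3, 0.32 for PUT1 and 0.24 for GAT1, against a median of 0.12 over all tested genes. These 6 genes were among the 10% of all tested genes with the largest SD. That ranking took genes of any signal, and genes of like signal were not compared separately. The median tested gene was at 501 to 524 intensity units in the homozygotes. MEP2, with 0.18, and GZF3, with 0.17, were above the median of all genes, and GLN3, with 0.10, was below it. From the lowest to the highest homozygote the signal differed 2.42-fold for GAP1, 2.14-fold for PUT4, 2.07-fold for MEP3 and 2.05-fold for PUT1. Each homozygote had 1 array, so a difference between strains and a difference between cultures of a strain cannot be told apart.

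**Figure D3:**
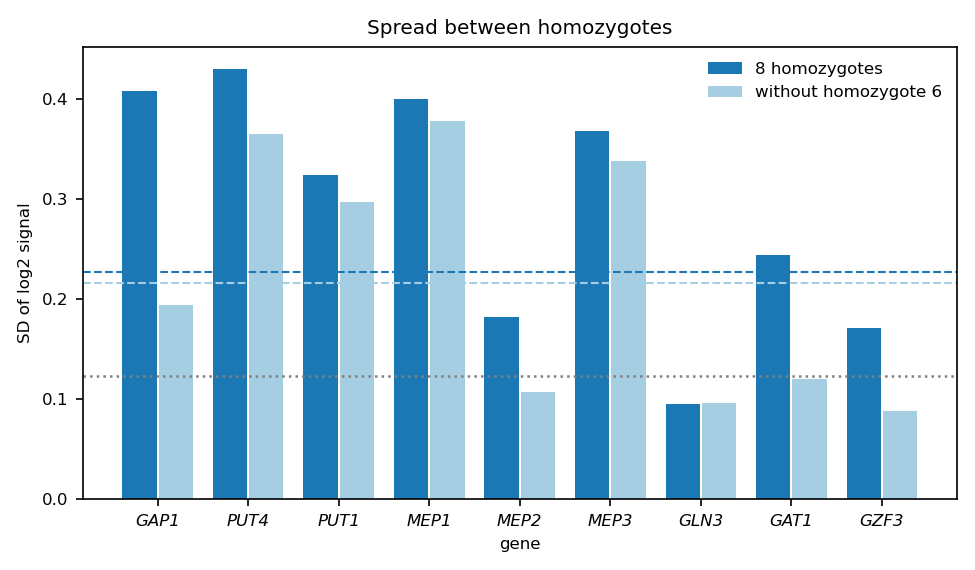
SD of the log2 signal between homozygotes for the 9 tested genes, over 8 homozygotes (dark bars) and without homozygote 6 (light bars). The dotted line is the median of all tested genes over 8 homozygotes and the dashed lines mark the 10% of genes with the largest SD in each case; PUT4, PUT1, MEP1 and MEP3 exceed them, GAP1 and GAT1 only with homozygote 6.

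Homozygote 6 had the highest signal of the 8 strains for 7 of the 9 genes, GAP1, PUT4, PUT1, MEP1, MEP2, MEP3 and GAT1, and the lowest for the repressor gene GZF3. Over all tested genes it was highest in 18.6% and lowest in 21.7%, and its median deviation from the middle of the homozygotes was 0.43 for the 9 genes and -0.01 for all genes on the log2 scale. Its GAP1 signal was 719.8, with the next homozygote at 449, and its GAT1 signal was 599, with the next at 434. Without it, 4 genes stayed among the 10% with the largest SD, namely PUT4 (0.36), MEP1 (0.38), MEP3 (0.34) and PUT1 (0.30), while GAP1 went to 0.19 and GAT1 to 0.12. The same 4 genes were among them without both homozygotes 5 and 6. The PUT1 SD fell from 0.32 to 0.224 without homozygote 8, where the limit of that 10% was 0.220. The rRNA signal of homozygotes 5 and 6 was above that of the other homozygotes, as given above, and the part of this in their nitrogen gene levels was not tested.

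The ammonium transporter genes MEP1 and MEP3 ranked the homozygotes alike. Homozygote 6 had the highest signal for both, at 449.7 for MEP1 and 221 for MEP3, followed by homozygote 1 at 417 and 212. Homozygotes 2, 4 and 8 were the lowest for both, at 232, 254 and 225 for MEP1 and at 107, 131 and 127 for MEP3. The proline genes gave a similar but not identical order. For PUT4 homozygotes 6, 7, 5 and 1 were highest, at 263, 228, 205 and 173, and homozygotes 2, 3, 4 and 8 lay between 123 and 140.4. For PUT1 the same 4 strains were highest, and homozygote 8 was lowest. MEP2 followed another order, with homozygotes 6 and 8 highest and homozygote 1 lowest.

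**Figure D4:**
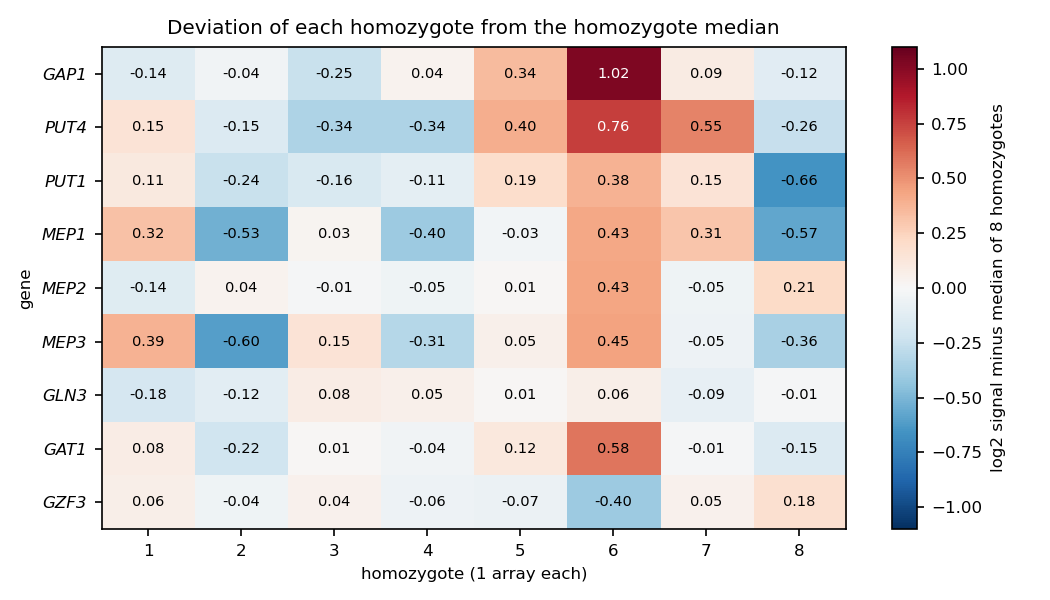
Log2 signal of each homozygote (columns, 1 array each) minus the median of the 8 homozygotes, for the 9 tested genes (rows). Red is above and blue below the median; homozygote 6 is above it by 0.38 to 1.02 for the permease, transporter, PUT1 and GAT1 genes and below it by 0.40 for GZF3.

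The genes whose profile over the 12 arrays was nearest to that of a member were sought for PUT4, GAP1 and MEP1, which had the largest SD over all arrays. Nearness was the root mean square difference between log2 signals after each gene's mean was subtracted. The nearest genes were picked from all tested genes on these same arrays. That they lie below the median gene was fixed by this choice and is no test of a link. MEP1 was nearest to MEP3 (0.16), then to GDH1 (0.18), which encodes the main NADP-dependent glutamate dehydrogenase of ammonium assimilation, and SPO24 (0.18), where the median gene was at 0.37. GDH1 was at 1735 and 1877 in the parental arrays and 1799 and 1928 in the evolved arrays, at 1360.1, 1849.6 and 1645 in homozygotes 2, 4 and 8, and at 2403 to 2656 in the other 5 homozygotes. GDH1 was not called in any comparison (homozygotes against parental arrays 0.24 ± 0.21, adjusted p = 0.415). PUT4 was nearest to the carnitine acetyltransferase gene YAT2 (0.16), PIG2 (0.17) and YNR014W (0.20), and GAP1 to YOL107W (0.15), GGA1 (0.16) and FAR7 (0.17), where the median gene was at 0.44 and 0.42. MEP1 and MEP3 encode related proteins, and whether either probe set also detects the other transcript was not tested.

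Other genes of nitrogen use were taken from lists by pathway. Over the 7 lists 22 of 71 tested genes were called in homozygotes against parental arrays (31.0%, against 31.2% of all tested genes), 11 in each direction. In evolved arrays 9 of 71 were called (12.7%, against 8.41%), 4 higher and 5 lower. STP2, 1 of these 9, was not followed under other settings in that comparison. With array weights, the calls in homozygotes of GLN1 (adjusted p = 0.0563), ALP1 (0.0563), STP2 (0.0855), GDH2, GDH3, SAM3, TOR1, NPR1, GTR1, TOR2 and BUL2 ended, as did those of the markers STE2, STE3 and STE18. The evolved calls of CAR1, CAR2, GDH3, GLN1, DIP5, ALP1, MUP1 and APE1 all ended with the evolved arrays counted as 1 sample (adjusted p 0.0515 to 0.206).

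In the list for proline, arginine and GABA use 2 of 8 genes fell and none rose in homozygotes against parental arrays (median log2 change -0.22, against -0.04 for all genes), where 18.0% of all tested genes fell and 13.2% rose. Both were genes of arginine breakdown. CAR1, arginase, was at 4173 and 5727 in the parental arrays, 2367 and 2405 in the evolved arrays and 1772 to 2899 in the homozygotes. It fell by 0.998 on the log2 scale in homozygotes (SE 0.16, adjusted p = 0.000614) and by 1.03 in evolved arrays (SE 0.20, adjusted p = 0.00638). CAR2, ornithine transaminase, fell by 0.51 (adjusted p = 0.000436) and 0.53 (adjusted p = 0.00494). The evolved falls of CAR1 and CAR2 missed the threshold without evolved array 1 or 2, and the falls in homozygotes passed in all 21 alternatives. The proline genes PUT2 and PUT3 of this list were not called (-0.27, adjusted p = 0.0588, and 0.32, adjusted p = 0.0826).

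Of 5 genes of ammonium assimilation 2 rose and 1 fell in homozygotes against parental arrays (median 0.24), where 13.2% of all genes rose and 18.0% fell, and 1 rose and 1 fell in evolved arrays, where it was 3.2% and 5.21%. GLN1, glutamine synthetase, which makes the preferred nitrogen source of yeast, rose by 0.35 ± 0.07 on the log2 scale (SE, adjusted p = 0.00201), from 3865 and 4533 in the parental arrays to 4737 to 5705 in the homozygotes. It also rose in evolved arrays, by 0.34 ± 0.08 (adjusted p = 0.0236), though leaving out parental array 1 gave 0.23 (adjusted p = 0.121), and it missed the threshold without either evolved array. GDH2, the NAD-dependent glutamate dehydrogenase that releases ammonium, rose by 0.48 ± 0.11 (adjusted p = 0.00466), and was at 0.23 without parental array 1 (adjusted p = 0.0974). GDH3, the second NADP-dependent glutamate dehydrogenase gene, on chromosome I, fell by 0.54 in homozygotes (adjusted p = 0.00479; -0.34 and 0.0858 with parental array 2 left out) and by 0.55 in evolved arrays (adjusted p = 0.0409). The latter missed the threshold under 12 of the 22 alternatives, among them leaving out parental array 2, either evolved array or any of homozygotes 1 to 4.

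Of 10 measured genes for allantoin and urea, which are classic targets of nitrogen catabolite repression, 1 rose and none fell in homozygotes (median 0.11), against 13.2% and 18.0% of all genes, and none was called in evolved arrays. DAL4, allantoin permease, was at 43.6 and 78.4 in the parental arrays and 91.1 to 114 in the homozygotes, a rise of 0.80 ± 0.16 (SE, adjusted p = 0.00284) that was 0.38 without parental array 1 (adjusted p = 0.0577). DUR1,2 had no probe set named here. Of 14 upstream regulators 1 rose and 3 fell in homozygotes (median -0.06), again against 13.2% and 18.0%, and none was called in evolved arrays. GTR1 rose by 0.31, and TOR1, NPR1 and TOR2 fell by 0.38, 0.35 and 0.21. NPR1 and TOR2 missed the threshold when either parental array was left out, TOR1 when array 1 was (-0.25) and GTR1 when array 2 was (0.09). TOR2 also missed it without either evolved array or without homozygote 7. It missed it as well after median centring (adjusted p = 0.0654) and on the compared arrays alone (adjusted p = 0.0523). After quantile normalization both TOR1 and TOR2 missed it (adjusted p = 0.0529 and 0.0697). URE2, whose product binds Gln3, was at -0.02 ± 0.06 (adjusted p = 0.862).

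**Figure D5:**
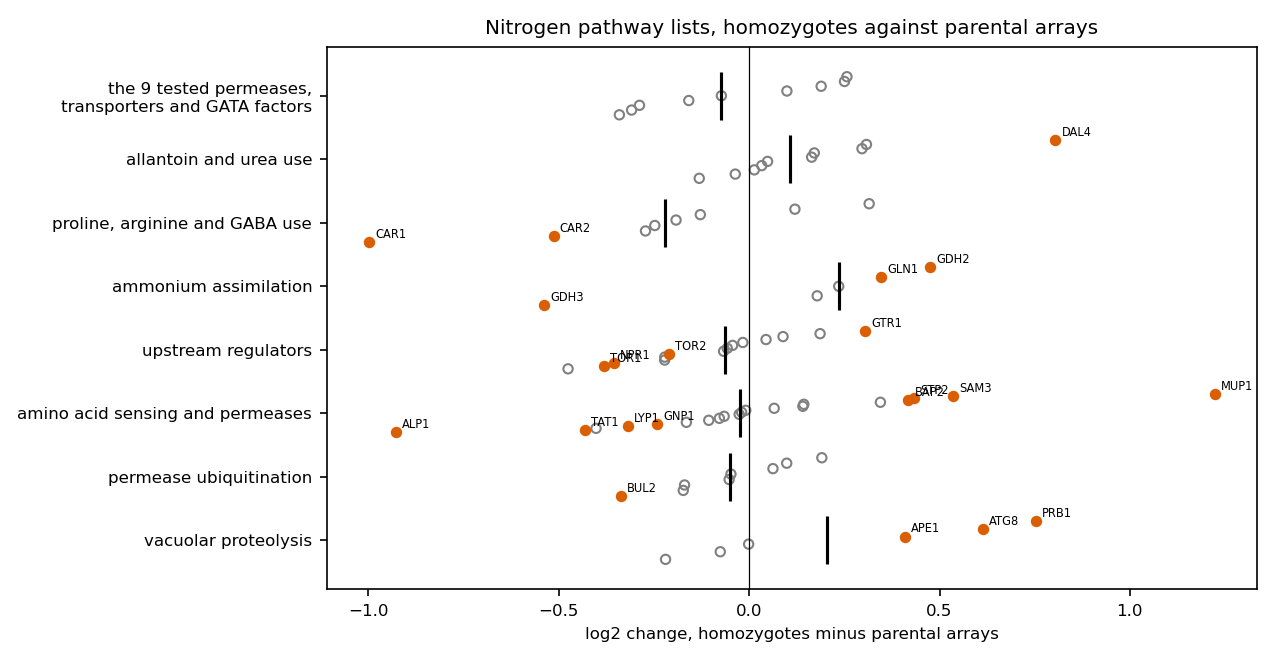
Log2 change in homozygotes against parental arrays for the tested genes of each nitrogen list (rows). Filled points passed the test and carry their names, open points did not, and black bars are list medians; the 9 tested permeases, transporters and GATA factors are all open and lie between -0.34 and 0.26.

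Among 20 genes of amino acid sensing and uptake 4 rose and 4 fell in homozygotes against parental arrays (median -0.02), beside 13.2% and 18.0% of all genes, and 2 rose and 2 fell in evolved arrays, beside 3.2% and 5.21%. Outside the rule for named genes, BAP2 was the other gene that rose and TAT1, LYP1 and GNP1 were the others that fell in homozygotes. The alternatives were not followed for these genes. BAP2 (adjusted p = 0.0486) was at 893 and 1524 in the parental arrays and 1323 to 1738 in the homozygotes, so its groups overlapped. MUP1, the high-affinity methionine permease, rose by 1.22 ± 0.16 (SE, adjusted p = 0.000141), from 461 and 587 in the parental arrays to 969 to 1555 in the homozygotes. STP2, a transcription factor of the amino acid sensing pathway, rose by 0.43 ± 0.08 (adjusted p = 0.00204), SAM3 by 0.54 ± 0.16 (adjusted p = 0.0207), and ALP1, a basic amino acid permease, fell by 0.93 (SE 0.17, adjusted p = 0.00174). SAM3 missed the threshold without parental array 1 (0.50) or 2 (0.57). In evolved arrays DIP5, the dicarboxylic amino acid permease, fell by 1.496 (SE 0.30, adjusted p = 0.00821), from 439 and 816 to 198 and 228. ALP1 fell there by 1.01 and MUP1 rose by 0.85. STP2 was the other gene that rose in evolved arrays (0.40, adjusted p = 0.0339), and the alternatives were not followed for it there. The evolved changes of DIP5, ALP1 and MUP1 missed the threshold without evolved array 1, and those of ALP1 and MUP1 also without evolved array 2. Without 1 parental array, ALP1 was at -0.72 (array 2 left out, adjusted p = 0.0545) and MUP1 at 0.67 (array 1 left out, adjusted p = 0.0932). AGP1, singled out after its values were seen, was not called, but it ranged in homozygotes from 463 in homozygote 2 and 573 in homozygote 8 to 1263 in homozygote 6.

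In the list of vacuolar proteolysis 3 of 6 genes rose and none fell in homozygotes (median 0.20), beside 13.2% and 18.0% of all genes. PRB1, vacuolar proteinase B, rose by 0.75 ± 0.15 (SE, adjusted p = 0.00209), though by 0.42 without parental array 1, ATG8 by 0.61 ± 0.11 (adjusted p = 0.00122) and APE1, an aminopeptidase, by 0.41 ± 0.07 (adjusted p = 0.00102). Homozygote 6 had the highest signal of the homozygotes for 5 of the 6 genes of this list, 4 of 8 of the proline, arginine and GABA list, 8 of 20 of amino acid sensing and uptake and 2 of 5 of ammonium assimilation. It was highest for 2 of 14 upstream regulators, 1 of 10 allantoin and urea genes, 1 of 8 genes of the permease ubiquitination list and 0 of 12 haploid markers, and for 18.6% of all tested genes. In evolved arrays APE1 was the 1 gene called, at 0.36 ± 0.09 (adjusted p = 0.0242). Leaving out parental array 1 gave 0.27 (adjusted p = 0.105), and it missed the threshold without either evolved array. The list named permease ubiquitination held 8 genes (median -0.05), among them PAR32, which is not a ubiquitination gene. In homozygotes 1 of the 8 fell, where 18.0% of all genes fell, and none was called in evolved arrays. The gene was BUL2, an adaptor of the Rsp5 ligase, with -0.34 ± 0.11 (adjusted p = 0.0325), at -0.15 without parental array 2. BUL2 missed the threshold after median centring (adjusted p = 0.0514) and after quantile normalization (adjusted p = 0.145).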

How the data were processed

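The authors deposited a linear intensity for each probe set of an array, made with MAS5 per the submitters' processing notes. The sources used here do not say how arrays were scaled to each other. The deposited intensities were put on the log2 scale (values under 1 would be set to 1) without a further normalization. Genes were named from the platform annotation, with symbols of the R64 assembly. Where a gene had several probe sets, a gene-specific one was preferred, then the brightest. Genes above background on at least 2 of 12 arrays were tested in limma 3.58.1 (R 4.3.3) with a mean for each group, variances moderated with a trend in signal, two-sided tests, Benjamini-Hochberg adjustment over 5352 genes. Because groups share the spread, p-values rest mostly on the 8 homozygotes and, over all genes, understate the uncertainty of the parental level. PUT4, PUT1 and MEP1 differ in this. Their homozygote SDs were 0.43, 0.32 and 0.40 on the log2 scale, while their parental duplicates differed by 0.051, 0.051 and 0.042. Their SE in evolved against parental arrays therefore comes mainly from strains outside that comparison. The code was tested on simulated data. Parental and evolved arrays are labelled as biological replicates, with no word on separate cultures, so their part of the shared spread may be technical. The larger part is the spread between the 8 homozygote strains.

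The genes described and the pathway lists were chosen with earlier results of these data known. From each list up to 4 genes called in homozygotes and up to 3 called in evolved arrays, those with the largest change, were to be named. Alternatives were other scalings, filters, a floor, a pseudocount of 16, fits on the compared arrays, array weights and leaving out arrays.

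Same-numbered parental and evolved arrays did not deviate together (correlation of their differences over 5352 genes -0.05), and nothing in the labels pairs them.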

Additional observations from a re-analysis of the deposited data

Results flagged for a closer look

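In homozygote 6 the GAP1 signal of 719.8 and the GAT1 signal of 599.3 were the highest of the 8 homozygotes, and the GZF3 signal of 364.8 was the lowest. Each was separated from the nearest homozygote by more than Dixon's 95% critical value, a gap of 0.53, 0.58 and 0.57 of the whole log2 range against a limit of 0.526. Chance flags about 1 in 20 groups, and 5.61% of all tested genes had such an array among the homozygotes, in 1.53% of genes homozygote 6. The rRNA signal of homozygote 6 was 11.81 on the log2 scale, against 11.56 to 11.64 in the homozygotes other than 5 and 6, and its part in these 3 values was not tested.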

How the results depend on the processing

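In the main fit, with all arrays, no further normalization and no array weights, no gene of the 9 was called in any comparison. In 565 of 585 results of single genes under an alternative the direction and the side of the threshold stayed. Many of these alternatives could not turn the direction. Leaving out an array of the group not compared, the filters, the floor, array weights and fits on the compared arrays leave these differences unchanged. So do the replicate block and the evolved arrays counted as 1 sample. For such alternatives the 565 covers only the side of the threshold. Leaving out 1 array gave 0 to 1 genes of the 9 called higher and 0 to 1 called lower in each comparison with parental arrays, and 0 in homozygotes against evolved arrays. In homozygotes against parental arrays 1 was called higher after quantile normalization (GLN3). With the replicate number as a block, on the 4 parental and evolved arrays alone, 1 was called lower in evolved arrays (PUT4, -0.82, adjusted p = 0.0404). That fit called 154 genes in all, against 46 on the same 4 arrays without the block and 450 in the main fit with the homozygotes. With array weights 3 were called higher in homozygotes than in evolved arrays. The sign turned for MEP1 in homozygotes against parental arrays after quantile normalization (0.018), and for GAP1 there without both homozygotes 5 and 6 (-0.090), an alternative chosen after seeing the data. Leaving out 1 array turned signs in homozygotes against parental arrays for GAP1 (-0.39 without parental array 2, -0.030 without homozygote 6, up to 0.59), MEP1 (-0.14 to 0.0012, without homozygote 8), MEP2 (-0.61 to 0.036, without parental array 1) and MEP3 (-0.40 to 0.080, without parental array 2). It did so in evolved against parental arrays for GAP1 (-0.68 to 0.30, without parental array 1) and GLN3 (-0.21, without parental array 2, to 0.25), and in homozygotes against evolved arrays for MEP2 (-0.017, without evolved array 1, to 0.26). Over all genes, 325 were called with array weights in homozygotes against parental arrays, against 1669, and 1394 to 1677 without 1 array. In evolved against parental arrays 46 were called on those 4 arrays alone, 184 with array weights, 133 with the evolved arrays counted as 1 sample (chosen after seeing the data), and 118 (without evolved array 1) to 863 (without parental array 2) without 1 array. In homozygotes against evolved arrays 1549 were called with array weights, 1 on those arrays alone, and 0 to 29 without 1 array, the 29 without homozygote 8. At an unadjusted p under 0.05 this comparison had 929 genes. The cause of these differences was not tested. Signals of the 9 genes were 5.58 to 129 times background, and DAL80 was under it.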
